A study of Mus musculus with 6 samples.

Results

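The tubulin genes of the left sciatic nerve were followed across 6 RNA-seq samples of sham-operated mice. Rows carrying one of 10 gene symbols were taken from the transcript tables, namely the 4 alpha tubulins Tuba1a, Tuba1b, Tuba1c and Tuba4a and the 6 beta tubulins Tubb2a, Tubb2b, Tubb3, Tubb4a, Tubb5 and Tubb6, and their values were summed by symbol. Levels are given as TPM, a transcript abundance in which reads are divided by transcript length and each sample is scaled to the same total, so genes can be compared within a pool. These were 10 of 54309 genes and 25 of 140789 transcripts. All 10 passed the filter on low counts that left 16310 genes for testing.

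The mice were C57BL/6 animals of 6 to 8 weeks, female or male. The labels name no transgene and no treatment beyond the sham surgery. The left sciatic nerve was exposed under isoflurane and left uncut, which is the sham surgery that both groups shared. By the study's methods, the proximal segment of the nerve was taken 24 h later. Each sample was a pool of 2 mice. There were 3 pools per sex from 6 mice per sex, so the replicates were separate animals and the spread within a sex is that between pools. No unoperated nerve is among the samples, and transected nerves were not analysed here.

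Microtubules are hollow polymers of alpha and beta tubulin heterodimers. They carry axonal transport and shape Schwann cells, axons and every dividing cell. Each tubulin is encoded by a small family of genes, the isotypes, which are nearly alike in their core and differ most in the acidic tail at the carboxyl end. The tails project from the lattice and are where polyglutamylation, polyglycylation and, on most alpha tubulins, removal and return of a final tyrosine take place. Free tubulin also lowers the stability of its own mRNAs during translation, through the adaptor Ttc5.

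The coding sequences of 6 tails, that of Tuba4a and those of 5 beta members, are shown because this is where the proteins of the isotypes differ most. Each stretch holds the last 20 codons and the stop codon, 63 bases, read from the GRCm39 mouse genome at the GENCODE M39 canonical transcript, and lies in 1 coding exon. The final sense codon is in capitals. The tail of Tuba4a lies on the minus strand at chr1:75192266-75192328.
Tuba4a: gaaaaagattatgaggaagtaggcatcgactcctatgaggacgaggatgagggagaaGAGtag

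The final codon of Tuba4a was GAG, which is not a tyrosine codon in the standard code. Of the beta tails, those of Tubb2a at chr13:34258451-34258513, Tubb2b at chr13:34311454-34311516, Tubb4a at chr17:57387690-57387752 and Tubb5 at chr17:36145874-36145936 lie on the minus strand, and that of Tubb3 at chr8:124148359-124148421 on the plus strand.
Tubb2a: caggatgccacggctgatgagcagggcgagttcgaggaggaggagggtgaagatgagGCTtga
Tubb2b: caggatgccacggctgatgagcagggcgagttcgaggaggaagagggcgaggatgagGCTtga
Tubb3: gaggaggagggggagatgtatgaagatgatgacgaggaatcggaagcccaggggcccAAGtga
Tubb4a: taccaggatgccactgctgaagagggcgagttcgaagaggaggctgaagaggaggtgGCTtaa
Tubb5: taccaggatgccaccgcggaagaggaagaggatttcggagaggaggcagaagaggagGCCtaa

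The tails of Tubb2a and Tubb2b differed at 3 positions, G42A, T48C and A51G, with positions counted from 1 at the first base shown and the base of Tubb2a written first. Each is the last base of its codon and leaves the amino acid unchanged in the standard code, so the encoded tails are the same. Tubb3 was the member whose tail ended in AAG, where the other 4 beta tails shown ended in GCT or GCC. The close pairs were also close over their whole coding sequence. Tuba1a and Tuba1b were identical at 98.3% of aligned coding bases, Tuba1b and Tuba1c at 97.94%, Tuba1a and Tuba1c at 97.12%, and Tubb2a and Tubb2b at 96.49%. The remaining beta pairs reached 80.21% to 85.88%, and Tuba4a matched the other alpha members at 84.73% to 85.19%. An alpha and a beta member shared 53.6% to 55.91%.

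These likenesses bear on the counts. Of the stretches of 31 bases in the coding sequence, 95.63% in Tuba1a, 97.21% in Tuba1b and 94.55% in Tuba1c also occur in a transcript of another gene of the reference, pseudogenes included. The shares were 68.12% in Tubb2a and 75.46% in Tubb2b, but 3.14% to 8.05% in Tuba4a, Tubb3, Tubb4a, Tubb5 and Tubb6. Over whole GENCODE M39 transcripts, which include untranslated parts, the shares were lower, at 76.83% in Tuba1a, 38.79% in Tuba1b, 55.44% in Tuba1c, 38.81% in Tubb2a and 17.71% in Tubb2b. Several of these transcripts are longer in that release than in the deposited files, Tuba1b with 3358 against 1743 bases and Tubb2b with 5794 against 2182. For those genes the whole-transcript shares are not those of the shorter transcripts that were quantified, in which coding bases make up more of the length. Salmon, the program that made the values, divides such shared reads between genes by a statistical model, so the split among Tuba1a, Tuba1b and Tuba1c and that between Tubb2a and Tubb2b depend in part on that model. A further gene, Gm49450, overlaps both Tuba1a and Tuba1b on their own strand and stood at 181, 184 and 122 TPM in the female pools and 138, 119 and 86.2 TPM in the male pools. How many of its reads arose from Tuba1a or Tuba1b was not tested.

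The genes themselves lie on 6 chromosomes (GRCm39). Tuba1b (chr15:98827738-98832493, minus), Tuba1a (chr15:98847714-98851589, minus) and Tuba1c (chr15:98927748-98936266, plus) form a cluster. Tubb2a (chr13:34257549-34261998, minus) and Tubb2b (chr13:34307245-34315143, minus) are neighbours. The single loci are Tuba4a (chr1:75189219-75196566, minus), Tubb3 (chr8:124138163-124150092, plus), Tubb4a (chr17:57387057-57394782, minus), Tubb5 (chr17:36144809-36149198, minus) and Tubb6, which is on chromosome 18. Genes on the opposite strand overlap some of them, such as Stk16 at Tuba4a and Flot1 at Tubb5. The library kit keeps the strand, but whether the quantification used it is not given in the sources used here, so reads at those overlaps are uncertain.

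Libraries held 55949605 to 78472815 estimated read pairs, and the 10 members drew from 3853 (Tubb3) to 415286 (Tuba1a) of them over all 6 pools. Xist, the X-inactivation RNA, was at 120 to 124 TPM in the female pools and below 1 TPM in the male pools, which matches the labels. The tissue carried the markers of myelinated nerve. All 8 Schwann cell genes examined passed the filter, with a summed level of 33357 to 40702 TPM in the female pools and 38732 to 42553 TPM in the male pools. Of 12 sensory neuron genes 6 passed the filter, all at low levels: Prph at 3.24 to 4.42 TPM, Calca at 2.37 to 4.54, Snap25 at 1.90 to 4.46, Nefl at 2.04 to 3.41, Nefm at 1.18 to 2.17 and Trpv1 at 0.742 to 1.299. Rbfox3, Elavl3, Elavl4, Scn10a, Tac1 and Isl1 were each under 0.4 TPM in all pools. Female replicate 2 stood apart through genes of fast skeletal muscle, and female replicate 3 through red blood cell genes, as given beside the members concerned.

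The 10 isotypes ranged over a wide span, from a mean of 1061 TPM for Tuba1b to 8.08 TPM for Tubb3. Together they made up 0.282% to 0.335% of all transcripts. Ranked with the 16310 genes tested, 6 members were in the top 10% by mean level, and 1, Tubb3, lay below the median gene. In bulk samples such as these, fewer cells of a type and less RNA per cell cannot be told apart.

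Tuba1a and Tuba1b carried most of the alpha tubulin mRNA. Tuba1b, a widely expressed alpha tubulin, stood at 1149, 1053 and 976 TPM in the female pools and at 1098, 1090 and 998 TPM in the male pools. Tuba1a, the alpha isotype best known from developing neurons, stood at 1024, 1013 and 964 TPM in the female pools and at 981, 1046 and 1036 TPM in the male pools. The ranges of the sexes overlapped for both genes. Tuba1b was the higher of the pair in 5 of 6 pools, male replicate 3 being the exception, and the means differed by a factor of 1.05.

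The lead of Tuba1b rested on a short transcript annotated as a retained intron, which does not encode the protein. This transcript stood at 71.9, 87.9 and 31.2 TPM in the female pools and at 69.5, 58.3 and 20.1 TPM in the male pools. With protein-coding transcripts alone, Tuba1b was above Tuba1a in 2 of 6 pools, and its level was 0.944 to 1.05 times that of Tuba1a. The order of these 2 genes was therefore not set by these data. Retained-intron transcripts of all genes took 4.81% to 5.04% of TPM in the female pools and 4.49% to 5.08% in the male pools, with the lowest share in male replicate 3, the pool in which the Tuba1b transcript was also lowest. Gm49450, the overlapping gene, was lowest there too.

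**Figure D1:**
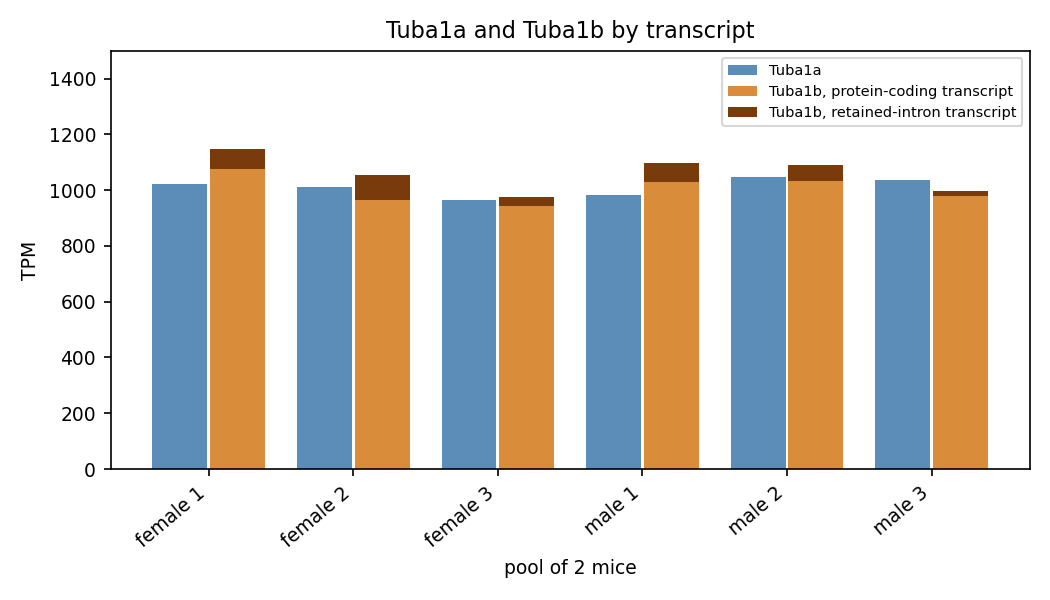
TPM (vertical axis) of Tuba1a and of the protein-coding and retained-intron transcripts of Tuba1b in each pool of 2 mice (horizontal axis). With the dark retained-intron segment Tuba1b exceeds Tuba1a in 5 of 6 pools, and without it in 2 of 6.

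Tuba1c, the third member of the chromosome 15 cluster, was lower. It measured 189, 155 and 144 TPM in the female pools and 172, 155 and 146 TPM in the male pools. Here too a retained-intron transcript contributed, with 17.8% to 21.3% of the gene's TPM in 5 pools and 2.96% in male replicate 3. Without that transcript Tuba1c stood at 149, 126 and 114 TPM in the female pools and 141, 127 and 142 TPM in the male pools. Male replicate 3 then moved from the second lowest value to the second highest.

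Tuba4a, whose last codon is not one for tyrosine, was the lowest alpha member and the least even. It measured 17.5, 61.1 and 17.9 TPM in the female pools and 18.2, 18.4 and 21.8 TPM in the male pools. Female replicate 2 was 3.26 times the mean of the other 5 pools, which was 18.8 ± 1.74 TPM (SD, n = 5). Its largest transcript in every pool was again a retained intron, with 32.1% to 44.7% of the gene, at 7.81, 25.2 and 6.66 TPM in the female pools and 6.56, 6.91 and 7.01 TPM in the male pools. Both the retained-intron and the protein-coding transcripts were highest in female replicate 2.

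The same pool had the highest summed level of fast skeletal muscle transcripts. The 8 muscle genes examined, all of which passed the filter, summed to 14.8, 2953 and 53.3 TPM in the female pools and to 186, 61.2 and 47.1 TPM in the male pools. Acta1, the actin of skeletal muscle, was at 739 TPM in female replicate 2 and at 2.11 to 91.7 TPM elsewhere, and Ckm, the muscle creatine kinase, at 395 TPM against 0.608 to 20.7 TPM. Myh1, a low gene of the same list, was not highest in that pool, with 4.76 TPM there and 4.88 TPM in male replicate 1. The part of muscle RNA in the Tuba4a value was not tested. In male replicate 1, which had the second highest muscle sum, Tuba4a was 18.2 TPM. That sum, 186 TPM, was far below the 2953 TPM of female replicate 2.

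Tuba4a had the widest range of log2(TPM + 1) among the 10 isotypes, so the genes most like it were sought over the 6 pools on log2(normalized CPM + 1), where CPM is a count scaled to library size. The 3 highest Pearson correlations were with Rrad, a small GTPase known from muscle (r = 0.99, Spearman rho = 1.0), Card14, a scaffold protein of inflammatory signalling (r = 0.99, rho = 0.66), and Casq1, the calcium-binding protein of the fast muscle sarcoplasmic reticulum (r = 0.98, rho = 0.77). These were the top of 16310 genes and carry no p-value. Without female replicate 2 the correlations over 5 pools were 0.79, 0.71 and 0.47. The likeness thus lay largely in that 1 pool. Rrad measured 10.2, 44.2 and 9.48 TPM in the female pools and 11.4, 10.7 and 10.8 TPM in the male pools. Card14 was low throughout, at 0.199 to 0.986 TPM, and Casq1 stood at 21.5 to 53.6 TPM.

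**Figure D2:**
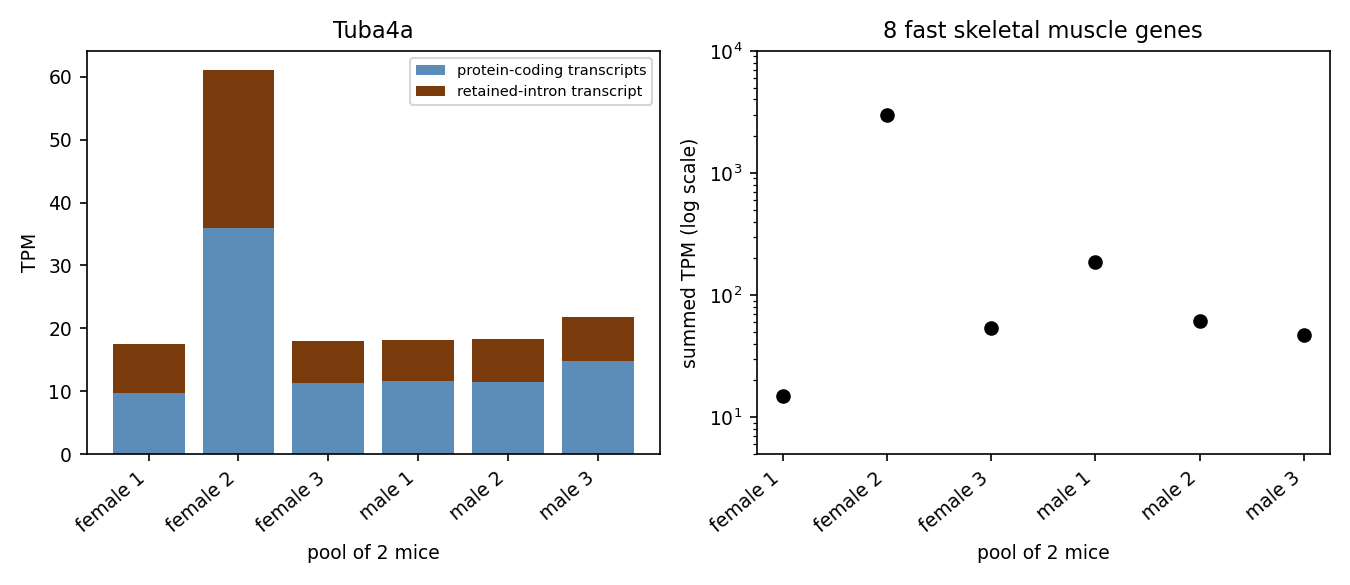
Left, TPM of Tuba4a in each pool of 2 mice, split into protein-coding transcripts and the retained-intron transcript. Right, summed TPM of 8 fast skeletal muscle genes in the same pools on a log scale. Female replicate 2 is highest in both, at 61.1 TPM for Tuba4a and 2953 TPM for the muscle genes.

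Among the beta tubulins, Tubb5, a broadly expressed isotype, had the highest level. It measured 434, 412 and 385 TPM in the female pools and 429, 429 and 391 TPM in the male pools, with 98.1% to 98.7% of this from 1 protein-coding transcript. Tubb5 was the steadiest of the 10 isotypes. Its coefficient of variation over 6 pools, on normalized CPM, was 3.81%, against a median of 9.04% over all genes tested.

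Tubb2a and Tubb2b, neighbouring genes known from neurons, stood on either side of Tubb6 among the beta members. Tubb2a measured 264, 213 and 169 TPM in the female pools and 196, 220 and 223 TPM in the male pools. Tubb2b measured 114, 82.2 and 49.5 TPM in the female pools and 66.4, 82.7 and 82.3 TPM in the male pools. Both were highest in female replicate 1 and lowest in female replicate 3, so that all male pools lay between the female extremes. The ratio of Tubb2b to Tubb2a was 0.293 to 0.432, with the lowest value in female replicate 3 and the highest in female replicate 1. Because the pair shares most of its coding sequence, the ratio depends in part on how reads were divided.

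Tubb6, a beta isotype of many non-neuronal cells, followed the same order within females, at 137, 112 and 94.3 TPM, against 126, 119 and 113 TPM in the male pools. Tubb3, the isotype used as a marker of neurons, was lowest of all 10 at 9.73, 7.05 and 5.42 TPM in the female pools and 8.78, 8.88 and 8.62 TPM in the male pools. The mean of Tubb5 was 51.2 times higher. Tubb4a, known from brain and oligodendrocytes, stood at 14.1, 15.5 and 17.04 TPM in the female pools and 15.98, 16.7 and 17.8 TPM in the male pools. Tubb4a was lowest in female replicate 1, where the other 5 beta members were highest.

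**Figure D3:**
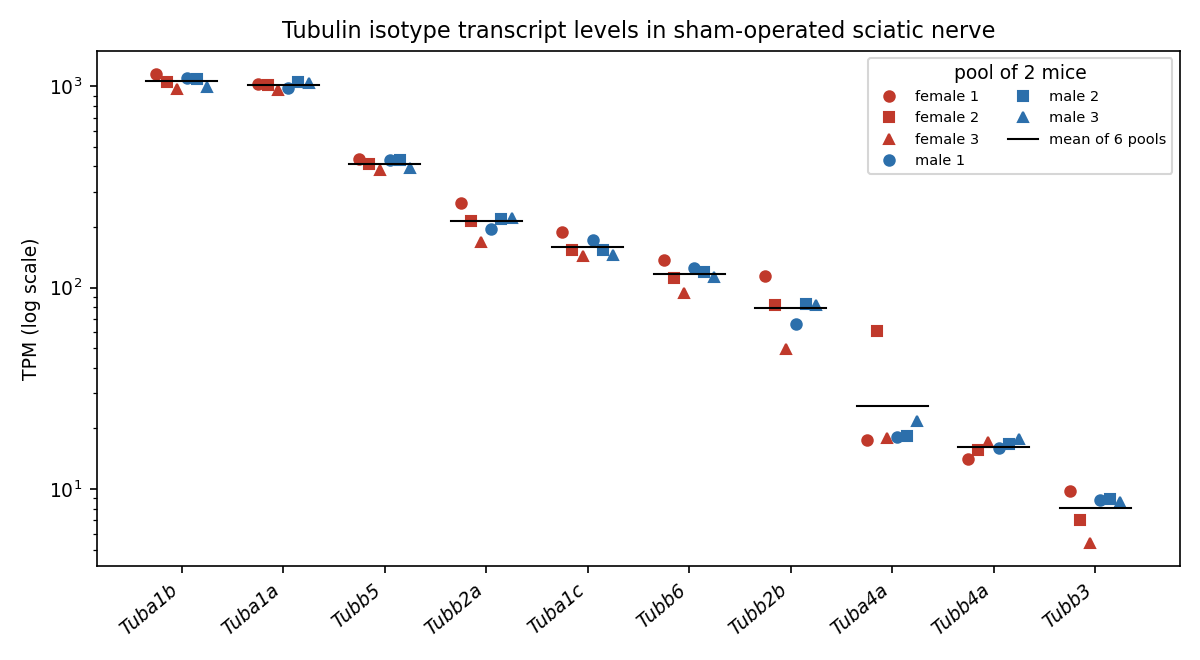
TPM on a log scale for the 10 tubulin isotypes, ordered by their mean over 6 pools (line), with 1 point per pool of 2 mice, females red and males blue. Tuba4a in female replicate 2, at 61.1 TPM, lies apart from the other 5 pools of that gene.

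In order of mean level the isotypes ran Tuba1b, Tuba1a, Tubb5, Tubb2a, Tuba1c, Tubb6, Tubb2b, Tuba4a, Tubb4a and Tubb3. Counted over all transcripts of a gene, neighbours in this order kept it in 6 of 6 pools apart from Tuba1b and Tuba1a, which kept it in 5. Without its retained-intron transcript, Tuba4a was below Tubb4a in every pool except female replicate 2. The ranges over pools overlapped for 5 of the 9 neighbouring pairs, those being Tuba1b with Tuba1a, Tubb2a with Tuba1c, Tubb6 with Tubb2b, Tubb2b with Tuba4a, and Tuba4a with Tubb4a. The overlap of Tubb2b with Tuba4a arose from the single value of Tuba4a in female replicate 2. Tuba4a and Tubb4a overlapped without it too, since the other 5 pools of Tuba4a began at 17.5 TPM and Tubb4a reached 17.8 TPM. The steps from Tuba1a to Tubb5, by 2.44 times, from Tubb5 to Tubb2a, by 1.93 times, from Tuba1c to Tubb6, by 1.37 times, and from Tubb4a to Tubb3, by 2.01 times, were free of overlap. With the main protein-coding transcripts alone, Tuba1c began at 114 TPM and Tubb6 reached 137 TPM, so that pair overlapped.

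Female replicate 1 held the highest normalized CPM for 7 of 10 isotypes, as it did for 3535 of all 16310 genes tested, and female replicate 3 the lowest for 8 of 10, as for 2286 of all genes. Tuba1a and Tubb4a were the exceptions at both ends, and Tuba4a was highest in female replicate 2. The members share reads and libraries, so these counts are not independent observations. In female replicate 3 the 4 red blood cell genes examined summed to 28647 TPM, against 4675 to 13233 TPM in the other 5 pools. The sum of 4 platelet genes, most of it Pf4, was highest in female replicate 1, at 1382 TPM against 757 to 1086 TPM. Gp9, a low gene of that list that did not pass the filter, was instead highest in female replicate 3. It stood at 1.22 TPM there and at 0.638 TPM in female replicate 1. The part of these blood cell transcripts in the tubulin values was not tested.

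The alpha shares describe how the alpha tubulin mRNA was divided. Tuba1b made up 47.0% ± 1.17 of the alpha members in females and 47.0% ± 1.55 in males (SD, n = 3 each). Tuba1a made up 44.4% ± 1.43 and 45.2% ± 1.91, and Tuba1c 7.19% ± 0.649 and 6.97% ± 0.520. Tuba4a took 0.734%, 2.68% and 0.853% in the female pools and 0.801%, 0.795% and 0.991% in the male pools. The Tuba4a share was highest in the pool with the highest muscle sum.

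The 6 beta members were more mixed. Their shares are of their own sum, which leaves out Tubb4b (with all beta symbols the Tubb5 share was 40.5% over 6 pools). Tubb5 made up 49.0% ± 4.44 in females and 48.9% ± 2.06 in males, Tubb2a 25.3% ± 1.85 and 25.0% ± 1.67, Tubb6 13.5% ± 0.530 and 14.02% ± 0.794, and Tubb2b 9.45% ± 2.44 and 9.05% ± 1.04 (SD, n = 3 each). Tubb4a took 1.89% ± 0.458 and 1.98% ± 0.134. The Tubb5 share was lowest in female replicate 1, at 44.6%, and highest in female replicate 3, at 53.5%. The Tubb2b share was 11.7% in the former and 6.87% in the latter, its extremes among the 6 pools. Tubb3 took 0.999%, 0.838% and 0.753% in the female pools and 1.04%, 1.01% and 1.03% in the male pools, so every male pool was above every female pool. The sexes overlapped by estimated read counts, where female replicate 1 was at 0.945% and male replicate 1 at 0.940%, and with all beta symbols in the denominator, where female replicate 1 was at 0.839% and male replicate 2 at 0.838%. The exact permutation p-values were then 0.4 and 0.2. The main difference of -0.17 percentage points had the smallest p that 3 against 3 pools can give, 0.1 in an exact two-sided permutation test, and an adjusted p of 1.0 over the 10 shares.

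**Figure D4:**
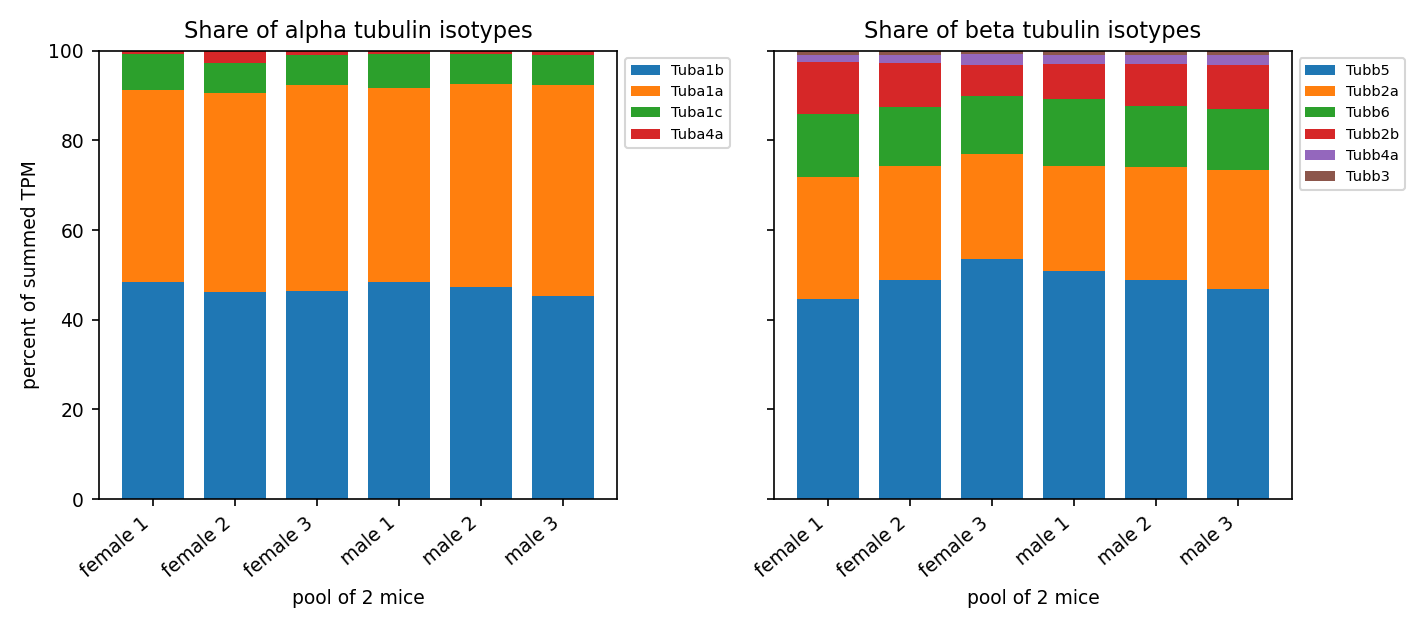
Stacked bars of the percent that each of 4 alpha members (left) and 6 beta members (right) supplied of the summed TPM of those members, in each pool of 2 mice. Tubb4b is not included. Tuba1b and Tuba1a fill about equal parts of the alpha bars, and Tubb5 ranges from 44.6% to 53.5% of the beta bars.

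None of the 10 shares differed between the sexes by more than 0.76 percentage points in the mean, and the exact permutation p-values ran from 0.1 to 1.0. With 3 pools per sex such a test cannot go below 0.1, so it cannot pass 0.05. Summed alpha members exceeded summed beta members 2.69 ± 0.237 times in females and 2.65 ± 0.0353 times in males (SD, n = 3 each), and this ratio did not differ detectably (p = 0.7, exact two-sided permutation test). The female pools stood at 2.44, 2.71 and 2.92 and the male pools at 2.70, 2.63 and 2.63. The sexes overlapped, and the female spread was the wider. With all alpha and beta tubulin symbols of the files included, the ratio was 2.21 ± 0.107 (SD, n = 6), Tubb4b being the highest of the genes added.

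Sex was the comparison that the design allowed for single genes, and it addresses whether uncut nerves of females and males hold the same tubulin transcripts. No isotype passed an adjusted p of 0.1 in edgeR's quasi-likelihood test, where 10 of 16310 genes, 0.0613%, did. At an unadjusted p under 0.05 the count was 0 of 10, against 6.11% of all genes. DESeq2 and limma-voom also called 0 of 10, where they called 0.975% and 0.159% of all genes. The normalized CPM of the sexes overlapped for every isotype, while it did not for 11.2% of all genes.

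On the log2 scale, female over male, 6 members had a positive value and 4 a negative one, with a median of 0.01 beside 0.00 over all genes tested. For 9 of 10 the value was within 0.2 of 0. Tuba1a stood at 0.00 ± 0.07 and Tuba1b at 0.02 ± 0.08 on the log2 scale (SE, 3 pools a sex), with edgeR adjusted p-values of 0.997 and 0.972. Tubb5 stood at 0.00 ± 0.07, Tubb6 at -0.01 ± 0.13 and Tuba1c at 0.01 ± 0.11. Against these standard errors a log2 change of 1 in either direction would lie far outside.

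The wider errors belonged to the less even genes. Tuba4a had the largest value, 0.69 ± 0.58 (SE; edgeR adjusted p = 0.883), and the value was -0.17 without female replicate 2 and 1.001 at most with any other pool left out. Tubb2b stood at 0.14 ± 0.31 (SE; adjusted p = 0.956), at -0.18 without female replicate 1 and at 0.40 without female replicate 3. Tubb3 stood at -0.19 ± 0.20 (SE; adjusted p = 0.909) and at 0.01 without female replicate 3. Without female replicate 1 it was -0.45 ± 0.13, with an edgeR p of 0.0113 (adjusted p = 0.913), the single case among the members and fits run with an unadjusted p under 0.05. Tubb2a stood at 0.06 ± 0.16 and Tubb4a at -0.06 ± 0.09.

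**Figure D5:**
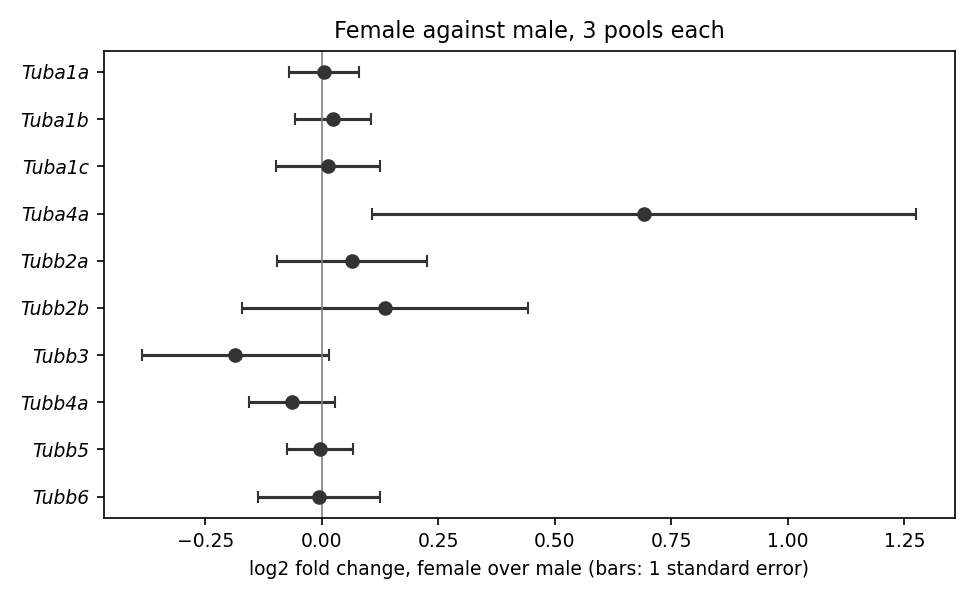
Log2 fold change of female over male for the 10 isotypes from edgeR, with bars of 1 standard error, from 3 pools per sex. The bars cross 0 for every isotype except Tuba4a, whose value of 0.69 has an SE of 0.58.

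The other tubulin genes place these isotypes in the family. Of 10 further tubulin symbols 7 passed the filter, and Tuba3a, Tuba3b and Tubal3 were listed at 0 in all pools. Tubb4b, a broadly expressed beta isotype outside the 10, measured 185, 185 and 159 TPM in the female pools and 178, 182 and 168 TPM in the male pools, which put it below Tubb2a and above Tubb6. Tuba8, an alpha isotype known from muscle and testis, was at 7.01, 7.49 and 3.23 TPM in the female pools and 3.76, 3.78 and 4.86 TPM in the male pools. Tubg1, the gamma tubulin of nucleation sites, was at 15.5 to 17.4 TPM, and Tubd1, the delta tubulin of centrioles, at 4.05 to 5.98 TPM. None of the 7 was called between the sexes (median log2 fold change 0.20), where 0.0613% of all genes tested were. At so low a share, 0 calls in a short list, here and in the lists below, say little about it. Of the 7, 1, Tubd1, had an unadjusted p of 0.035 (log2 fold change 0.27 ± 0.11, SE; edgeR adjusted p = 0.801).

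Newly made tubulin is folded by prefoldin, the chaperonin CCT and the tubulin cofactors. All 21 genes of this group passed the filter and 0 were called, against 0.0613% of all genes tested. In females 16 were higher and 5 lower, with a median log2 fold change of 0.06 beside 0.00 over all genes. Cct5, a chaperonin subunit, measured 264, 259 and 235 TPM in the female pools and 229, 229 and 215 TPM in the male pools. The sexes did not overlap (log2 fold change 0.18 ± 0.06, SE), and the edgeR quasi-likelihood p was 0.022, 0.75 after adjustment. Tcp1, the first described subunit, measured 266, 252 and 222 TPM in the female pools and 231, 230 and 205 TPM in the male pools, and Cct4 171, 158 and 145 TPM against 143, 145 and 137 TPM. All 8 chaperonin subunit genes examined were highest in female replicate 1, the pool in which 7 of 10 tubulins were highest. That subset was picked after its values were seen.

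Enzymes that modify tubulin were measured for 26 genes, of which 20 passed the filter and 0 were called, against 0.0613% of all genes tested. In females 13 were higher and 7 lower, with a median log2 fold change of 0.03. Sirt2, a deacetylase, was the highest at 264 to 293 TPM, and Svbp, the partner of the detyrosinating vasohibins, measured 45.6 to 59.0 TPM. The polyglutamylase Ttll4 was at 16.02, 16.01 and 12.05 TPM in the female pools and 13.1, 13.4 and 11.5 TPM in the male pools (log2 fold change 0.19 ± 0.08, SE; edgeR adjusted p = 0.814). The glycylase Ttll3 was at 3.36 to 4.16 TPM (log2 fold change 0.20 ± 0.10, SE).

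Of 28 microtubule-associated genes 25 passed the filter and 0 were called, against 0.0613% of all genes tested. In females 13 were higher and 12 lower, with a median of 0.00. Stmn1, which binds free tubulin, was the highest at 341, 389 and 460 TPM in the female pools and 387, 377 and 404 TPM in the male pools. Among the female pools it was lowest where Tubb2b was highest, in replicate 1, and highest where Tubb2b was lowest, in replicate 3. Tuba1a, Tuba1b, Tuba1c, Tubb2a, Tubb3, Tubb5 and Tubb6 ran in the same order as Tubb2b there, and only Tuba4a and Tubb4a among the isotypes did not. Among the male pools Stmn1 was highest in replicate 3, while Tubb2b was lowest in replicate 1. This comparison was not among those planned. Tppp3, a polymerization-promoting protein, measured 248 to 274 TPM. Mapt, which encodes the axonal protein tau, was at 6.94 to 9.35 TPM, in the range of Tubb3. Tppp, known from oligodendrocytes, was at 0.901 to 1.76 TPM and had an unadjusted p of 0.043 (log2 fold change -0.50 ± 0.21, SE; edgeR adjusted p = 0.806).

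The 9 genes of severing enzymes and of tubulin mRNA autoregulation all passed the filter with 0 called, against 0.0613% of all genes tested. In females 3 were higher and 6 lower, with a median log2 fold change of -0.02. Ttc5 measured 28.7 to 33.5 TPM and Katna1, a katanin subunit, 24.2 to 26.6 TPM. Fign, encoding fidgetin, stood at 3.79 to 5.33 TPM (log2 fold change -0.20 ± 0.09, SE; edgeR adjusted p = 0.826) and its relative Fignl1 at 6.29 to 8.21 TPM.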

How the data were processed

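Paired-end, strand-specific poly-A libraries were trimmed with Trimmomatic 0.39 and quantified with Salmon on GENCODE mouse transcripts by the authors. The sources differ on the Salmon version, of which the submitters' processing notes give 1.5.2, and on the GENCODE release, both releases being on GRCm39. For each transcript the deposited files hold an estimated count (read pairs, not normalized, often with a fraction). They also give TPM, which the authors' software scaled within each sample, and length and effective length. TPM values therefore follow the transcript lengths in the deposited files, which differ from those of GENCODE M39 for some members.

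Here TPM and estimated counts were summed by gene symbol (members) or gene identifier (tests). Counts were rounded, and a gene was kept where its CPM reached 0.5 in 3 pools or more. Females were compared with males in edgeR 4.0.16 (R 4.3.3) by the quasi-likelihood test (robust fit, TMM factors, sex as the single term). The p-values were adjusted by Benjamini and Hochberg's method over 16310 genes, with 0.1 as the threshold, as in the study's methods. The SE is the log2 fold change divided by the root of its F value. DESeq2 1.42.0 and limma 3.58.1 were alternatives, as were other normalization factors, filters, length offsets, a replicate block and each pool left out. Shares and ratios were compared with exact permutation tests in SciPy 1.17.1. Coding sequences were aligned with Biopython 1.88, and 139544 of 140789 transcripts in the files matched the reference. Tests were run on simulated data first.

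The text names all 10 members, of each gene list the 2 genes with the highest mean TPM and the 2 with the smallest p, and the 3 genes most like the member of widest range. The members and lists were chosen with earlier results of these data known. Genes outside this rule are markers or controls, or are marked as picked after their values were seen. Intervals for shares are SDs between pools. Replicates are pools of separate animals. Some sequences are not reported here.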

Additional observations from a re-analysis of the deposited data

How the results depend on the processing

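In all 15 alternatives 0 isotypes were called between the sexes. The count over all genes, 10, was 49 without a filter on low counts, 4 with the stricter filter, 159 with DESeq2, 26 with limma-voom and 3 to 8 with a pool left out (3 without male replicate 1, 4 without female replicate 1 or male replicate 2). The replicate numbers do not pair the pools, since same-numbered female and male pools had correlations of -0.15 to -0.18 and came from separate animals. Female and male pools of unlike number had correlations of -0.11 to 0.307, the highest between female replicate 3 and male replicate 2. What such pools shared was not tested. With the replicate block 5 genes were called and 0 isotypes, and the share tests gave p-values of 0.25 to 1.0. The smallest p that the blocked share test can give is 0.25, so it cannot show a difference.

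Signs near 0 changed with the setting. With transcript length offsets the log2 fold change was -0.0378 for Tuba1a and -0.0107 for Tuba1b, and with limma-voom -0.0075 for Tuba1b and -0.0115 for Tuba1c. With each pool left out the log2 fold change ran from -0.0362 to 0.0524 for Tuba1a, -0.0506 to 0.0743 for Tuba1b, -0.1174 to 0.1058 for Tuba1c, -0.1716 to 1.0009 for Tuba4a, -0.119 to 0.221 for Tubb2a, -0.1842 to 0.396 for Tubb2b, -0.4479 to 0.0081 for Tubb3, -0.1229 to 0.0177 for Tubb4a, -0.049 to 0.0396 for Tubb5 and -0.1665 to 0.1255 for Tubb6.

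The Tuba1b share of alpha, 47.0%, was 44.8% by estimated read counts, and that of Tuba1a rose there to 47.2%, so the 2 exchanged places. The Tubb5 share of beta, 49.0%, was 56.9% by read counts and 40.5% with Tubb4b and the other beta symbols in the denominator. The alpha to beta ratio, 2.67, was 2.00 by read counts and 2.21 with all symbols. Counts are not divided by length. The limits are 3 pools per sex, shared reads between close isotypes, and muscle and blood RNA, which all pools held in varying amounts. The muscle sum was highest in female replicate 2, the red blood cell sum in female replicate 3 and the platelet sum in female replicate 1. Protein and polymer were not measured.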
